A study of Mus musculus with 24 samples.

Results

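The 45 genes described here are activity-induced immediate early and early genes of neurons, taken as a list of symbols that uses no measured value. Earlier results of these data were known when the list was chosen. They were 9 AP-1 and related bZIP genes (Fos, Fosb, Fosl2, Jun, Junb, Jund, Maff, Atf3 and Crem), 4 Egr genes (Egr1 to Egr4) and 3 Nr4a genes (Nr4a1 to Nr4a3). Npas4 was taken with 4 Klf genes (Klf2, Klf4, Klf6 and Klf10), beside 8 other nuclear and growth-arrest genes (Ier2, Ier3, Ier5, Btg1, Btg2, Csrnp1, Gadd45b and Gadd45g). The feedback and kinase genes numbered 12 (Dusp1, Dusp4, Dusp5, Dusp6, Errfi1, Zfp36, Trib1, Sik1, Rgs2, Pim1, Plk2 and Plk3) and the effectors 4 (Bdnf, Ptgs2, Cyr61 and Rheb). All 45 were present among the 23845 rows of the RNA table and among the 20436 rows of the ribosome profiling table. All 45 passed the filter on low counts in both assays, which left 14516 genes for RNA and 12877 for ribosome-protected fragments (RPFs).

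RNA-seq and ribosome profiling had been applied to hippocampal slices of WT and Tsc2+/- mice to ask how the loss of 1 copy of Tsc2 and the activation of group I metabotropic glutamate receptors change mRNA levels and translation. Ribosome profiling sequences the mRNA fragments that ribosomes protect from nuclease, so the ratio of RPF to RNA gives a translational efficiency (TE). The 4 groups were WT vehicle, WT DHPG, Tsc2+/- vehicle and Tsc2+/- DHPG, each with 3 replicates and an RNA and an RPF library from the same lysate, 24 libraries in all. The Tsc2+/- allele was germline, made with CMV-Cre from a floxed Tsc2 line, so every cell type of the slice carried it. WT and Tsc2+/- animals were males aged 28 to 42 days on a C57BL/6J background. The methods of the study give a narrower age range within this one. DHPG, an agonist of these receptors, was given at 100 µM for 5 min, and vehicle was artificial cerebrospinal fluid. All 4 groups shared the slicing, the recovery in the bath, the removal of CA3 and the cycloheximide given before freezing. Each library pooled slices of 6 mice, so its value is a mean over animals, and the p-values below measure the spread between pools. No tissue frozen without slicing was among the libraries, and slices are bulk tissue, in which fewer cells of a type and less RNA per cell cannot be told apart.

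Immediate early genes are transcribed within minutes of synaptic input from promoters held ready, without new protein synthesis. Calcium and the ERK kinase pathway reach them through CREB, which binds the cyclic AMP response element (CRE), and through serum response factor, which binds the CArG box. Their mRNAs are short-lived, often because AU-rich elements in the 3′ UTR recruit decay factors such as tristetraprolin, the product of Zfp36, and dissociation or slicing of brain tissue is itself a known trigger of many of them.

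Promoter sequence of 37 of the 45 genes was available from RefSeq (GRCm38.p6, the build of the mm10 genome used by the authors), and the 250 bases before each annotated start were searched on both strands. The 8 genes without promoter sequence, Crem, Egr1, Egr3, Klf10, Ier2, Dusp4, Trib1 and Sik1, were not searched. Sites further from a start were not searched either, so a motif not found here may still be present in the gene. The promoters of Fos, Zfp36, Ier3 and Npas4 are shown as examples from the genes called for replicate number in RNA (described further on). Sequences run 5′ to 3′ on the strand of the gene, and capitals mark the CRE core (TGACG, or CGTCA on the other strand), the CArG box and the EGR site (GCGGGGGCG).
Fos promoter, chr12:85473640-85473889, + strand: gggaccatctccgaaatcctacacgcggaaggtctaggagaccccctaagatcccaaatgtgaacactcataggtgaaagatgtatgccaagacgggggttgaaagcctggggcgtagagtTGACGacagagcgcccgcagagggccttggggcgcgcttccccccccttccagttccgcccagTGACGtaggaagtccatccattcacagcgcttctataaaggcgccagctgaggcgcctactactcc
Zfp36 promoter, chr7:28379229-28379478, - strand: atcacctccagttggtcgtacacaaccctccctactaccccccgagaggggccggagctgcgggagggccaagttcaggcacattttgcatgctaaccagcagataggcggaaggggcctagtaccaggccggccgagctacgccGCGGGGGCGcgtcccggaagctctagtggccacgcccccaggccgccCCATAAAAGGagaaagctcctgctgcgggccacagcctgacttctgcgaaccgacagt
Ier3 promoter, chr17:35821463-35821712, + strand: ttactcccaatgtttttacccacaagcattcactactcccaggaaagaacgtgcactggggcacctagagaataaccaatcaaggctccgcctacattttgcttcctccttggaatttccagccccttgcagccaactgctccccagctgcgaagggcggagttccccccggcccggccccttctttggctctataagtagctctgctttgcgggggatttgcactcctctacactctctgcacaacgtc
Npas4 promoter, chr19:4989972-4990221, - strand: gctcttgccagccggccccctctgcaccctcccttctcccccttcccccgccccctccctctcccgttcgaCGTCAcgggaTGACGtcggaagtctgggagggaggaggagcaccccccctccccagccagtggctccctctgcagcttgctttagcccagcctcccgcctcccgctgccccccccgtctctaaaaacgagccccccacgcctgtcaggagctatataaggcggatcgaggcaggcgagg

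The Fos promoter held 2 copies of the CRE core and the Npas4 promoter 1 copy on each strand. The Zfp36 promoter held a CArG box and an EGR site, and the Ier3 promoter held none of the motifs searched. Over the whole list, 25 of the 37 genes (67.6%) had a CRE core in at least one of their start windows, against 19.8% of all 27025 genes with a promoter in the table. The full CRE, TGACGTCA, which contains the CRE core, was found for 5 of the 37 (13.5%), against 1.77% of all genes, and the CArG box for 3 (8.11%), against 1.62%. The EGR site was found for 6 (16.2%), against 2.93%, whereas the AP-1 site TGACTCA was found for 1 (2.7%), against 5.16%. A match of letters is a description and does not show that a factor bound there. The full CRE of 5 genes and the CArG boxes are printed with 8 flanking bases, with the motif in capitals, because they are the members' closest matches to the 2 classical response elements.
Plk2 full CRE, chr13:110394974-110394997, + strand: gctcgccgTGACGTCAcgaggccc
Dusp1 full CRE, chr17:26508600-26508623, - strand: agggcgggTGACGTCAccgcccgg
Btg2 full CRE, chr1:134079306-134079329, - strand: cccaataaTGACGTCAgtgagcga
Errfi1 full CRE, chr4:150855011-150855034, + strand: gcgggcgtTGACGTCAcgttgtcg
Maff full CRE, chr15:79347483-79347506, + strand: tggggcggTGACGTCActgcatga
Zfp36 CArG box, chr7:28379269-28379294, - strand: aggccgccCCATAAAAGGagaaagct
Egr2 CArG box, chr10:67537486-67537511, + strand: gatcttctCCTTTTTTGGaaagtctc
Egr2 CArG box, chr10:67537789-67537814, + strand: tcctcagtCCATATATGGgcagcgac
Dusp5 CArG box, chr19:53529055-53529080, + strand: ggaaatacCCATATTTGGccttatat
Dusp5 CArG box, chr19:53529065-53529090, + strand: atatttggCCTTATATGGgcactcac

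In the 3′ UTR of the longest RefSeq transcript, the pentamer ATTTA occurred in 39 of the 45 genes (86.7%), against 68.2% of 13925 genes tested in RNA. The nonamer TTATTTATT, the core of AU-rich elements, occurred in 10 (22.2%), against 7.83%. It is shown in capitals for the 5 genes that also differed between replicate numbers in RNA.
Fos 3′ UTR site, chr12:85477105-85477129, + strand: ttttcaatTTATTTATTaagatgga
Zfp36 3′ UTR site, chr7:28376953-28376977, - strand: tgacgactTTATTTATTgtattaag
Dusp1 3′ UTR site, chr17:26506161-26506185, - strand: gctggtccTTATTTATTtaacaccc
Dusp1 3′ UTR site, chr17:26505872-26505896, - strand: ttttacctTTATTTATTtttgtgta
Ptgs2 3′ UTR site, chr1:150105792-150105816, + strand: gaccatatTTATTTATTtatgtgaa
Csrnp1 3′ UTR site, chr9:119972069-119972093, - strand: ctctgaatTTATTTATTtttttatg

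Libraries held 14801679 to 24067838 counts in RNA and 5296006 to 13613673 in RPF. Counts were divided by the library size times its TMM factor and scaled to a common total, which gives CPM. The fewest counts any of the 45 genes had in a library were 92 in RNA (Klf2) and 14 in RPF (Klf4), so footprint values of Klf4 and Klf2 carry the most counting error. Tsc2 itself lay at 186 to 214 CPM in the 6 WT RNA libraries and at 128 to 137 in the 6 Tsc2+/- libraries. The summed CPM of 5 neuronal markers was 9100 to 10719 in RNA, and that of 4 CA1 markers 1614 to 1786. Markers of the dentate gyrus (22.1 to 53.9 over 5 genes) and of CA3 (35.4 to 43.6) were low but not absent. The CA3 sum covers the 3 of 4 listed genes that passed the filter on low counts. In RPF, 97.9% to 98.5% of the non-zero counts of replicates 2 and 3 were even, against 48.2% to 49% in replicate 1 and 48.5% to 49.7% in RNA. Their RPF counts may therefore be 2 times the number of fragments, which was not settled, and the 14 counts of Klf4 lay in such libraries. With those counts halved, 0 of the 45 genes were called in the comparisons of groups in RPF or TE, and the same 13 were called for replicate number in RPF.

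The first question was how high the genes stood in slices that had received no DHPG. Induction by slicing itself was not measured, since no unsliced tissue was among the libraries, and only the level and its rank can be given. Levels between genes were compared per kilobase, using the longest RefSeq transcript for RNA and the longest coding sequence, less 30 bases at each end, for RPF. In WT vehicle slices the median of the 45 genes was 15.4 CPM per kilobase in RNA, against 6.62 over all genes, and their median percentile was 70.6. In RPF the median was 55.6 CPM per kilobase against 17.04, at a median percentile of 77.3. In RNA, 35 of the 45 lay above the median of all genes and 9 at or above the 90th percentile. In RPF, 37 lay above the median and 8 at or above the 90th percentile.

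Plk2, a kinase of synaptic homeostasis, had the highest RNA level of the list, 136 ± 3.27 CPM per kilobase (SD, n = 3), and Egr1, a zinc finger factor widely used as an activity marker, came next at 109 ± 8.19. Jund (78.1 ± 5.20) and Junb (75.6 ± 8.03) followed and did not differ beyond their spread. Fos (63.2 ± 10.1), Rheb (61.8 ± 3.53) and Egr3 (60.5 ± 2.10) likewise lay within each other's spread. At the low end were Egr2 (4.13 ± 0.589), Crem (4.35 ± 0.117), Klf4 (4.43 ± 0.242) and Ptgs2 (4.46 ± 0.699), and the lowest of the 45, Egr2, still stood at the 40.0th percentile. Npas4, the most selective reporter of calcium entry among these genes, stood at 7.5 ± 1.62, close to the middle of all genes at percentile 52.8. The largest shift of a gene's RNA percentile between the 4 groups was 5.72 points (Dusp4), and using the median instead of the longest transcript length moved no percentile by more than 5.31 points (Nr4a3). Fos (92.3 to 92.8) and Egr1 (96.2 to 96.4) stood above the 90th percentile in each of the 4 groups, with vehicle as with DHPG.

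**Figure D1:**
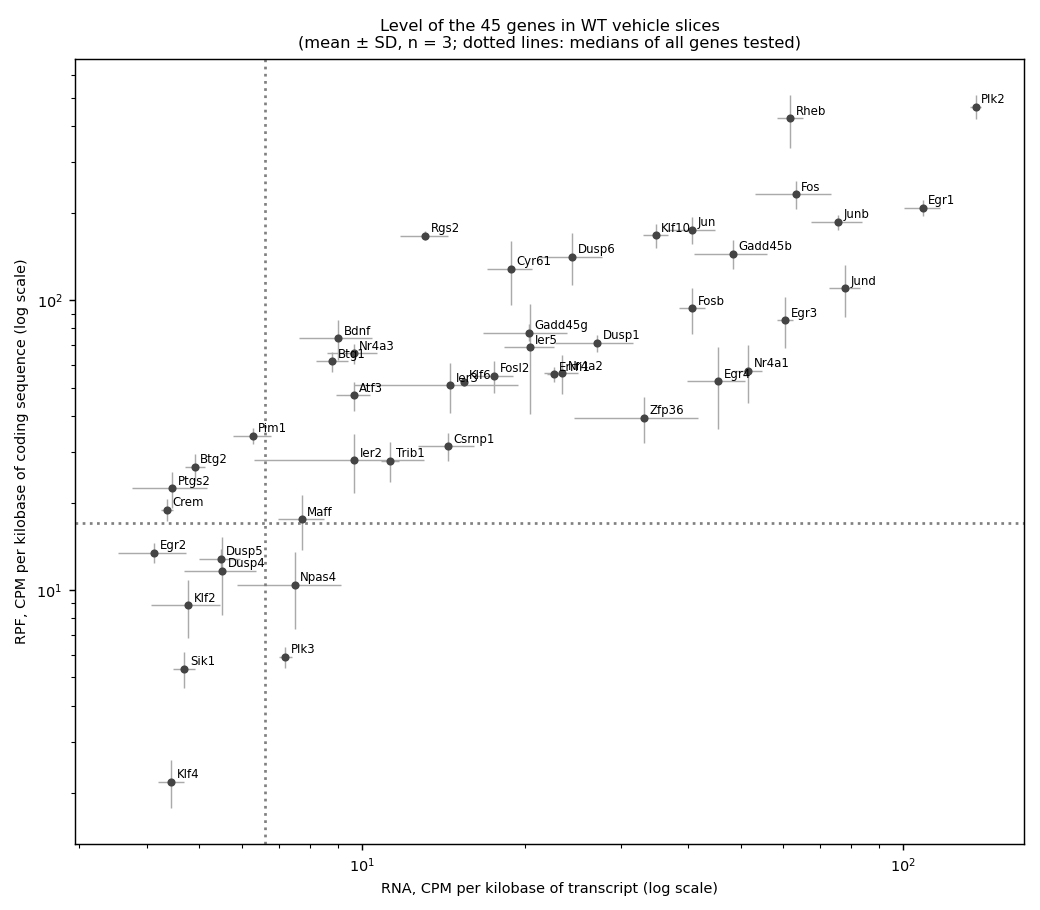
Each point is 1 of the 45 genes in WT vehicle slices, with RNA in CPM per kilobase of transcript on the x axis and RPF in CPM per kilobase of coding sequence on the y axis, both on log scales (mean ± SD, n = 3); dotted lines mark the medians of all genes tested, 6.62 and 17.04. Most genes lie above and to the right of the 2 medians, with Plk2 at the top right and Klf4 lowest in RPF.

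Footprints per RNA spread widely among the 45 genes. The log2 ratio of RPF to RNA, per kilobase, had a median of 1.58 against 1.19 over all genes, at a median percentile of 64.1, and ranged from -1.04 for Klf4 to 3.68 for Rgs2, a brake on Gq signalling. The 4 effector genes had the highest median percentile of any role, 92.5. Among them Bdnf, a secreted neurotrophin, stood at 3.03 ± 0.12 and Rheb, the GTPase that activates mTORC1 and is itself held off by the TSC complex, at 2.76 ± 0.37. The 4 Egr genes had a median percentile of 33.9, with Egr4 at 0.17 ± 0.48 and Egr1 at 0.94 ± 0.04. Within the Nr4a family, Nr4a1 (0.12 ± 0.31) and Nr4a3 (2.77 ± 0.10) differed by more than their SDs. These ratios depend on the transcript and coding lengths assigned to each gene.

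The values of single libraries follow by role, in CPM and always in the order of replicates 1, 2 and 3. Where all libraries of one group are said to lie above or below those of another, the statement only describes these 3 libraries per group. The share of all genes that separate in this way was not counted, and the tests are given further on. The AP-1 family pairs Fos and Jun proteins to bind DNA. Fos (at chr12:85473890-85477274 on GRCm38.p6) had RNA values of 127, 115 and 157 in WT vehicle, 126, 122 and 165 in WT DHPG, 128, 117 and 138 in Tsc2+/- vehicle and 110.3, 109 and 163 in Tsc2+/- DHPG. Its RNA was highest in replicate 3 of every group, and the 4 groups overlapped. Fos RPF was 274, 219.8 and 260.2 in WT vehicle, 222, 218 and 245 in WT DHPG, 221, 209 and 227 in Tsc2+/- vehicle and 209.5, 206 and 224 in Tsc2+/- DHPG, and there WT vehicle replicate 1 was the highest library. Fosb, whose truncated product accumulates with repeated stimulation, had RNA values of 145, 162 and 153 in WT vehicle, 178, 153 and 166 in WT DHPG, 177, 163 and 172 in Tsc2+/- vehicle and 167, 154 and 155 in Tsc2+/- DHPG. Its Tsc2+/- vehicle libraries lay just above the WT vehicle libraries in RNA. Fosb RPF was 108, 84.8 and 76.5 in WT vehicle, 94.6, 87.5 and 86.7 in WT DHPG, 87.3, 87.5 and 92.2 in Tsc2+/- vehicle and 90.8, 89.0 and 86.4 in Tsc2+/- DHPG. All groups overlapped there. Jun RNA was 121, 123 and 145 in WT vehicle, 121, 127 and 162 in WT DHPG, 118, 118 and 143 in Tsc2+/- vehicle and 130.2, 112 and 164 in Tsc2+/- DHPG, again highest in replicate 3 throughout. Jun RPF was 186, 153 and 158 in WT vehicle, 155, 159.8 and 179 in WT DHPG, 156, 146 and 176 in Tsc2+/- vehicle and 161, 148 and 167 in Tsc2+/- DHPG. The highest library was again WT vehicle replicate 1. Junb RNA measured 127, 134 and 156 in WT vehicle, 135, 145 and 161 in WT DHPG, 131, 139 and 143 in Tsc2+/- vehicle and 132, 134 and 147 in Tsc2+/- DHPG, with replicate 3 above the other two in every group. Junb RPF was 193, 171 and 181 in WT vehicle, 167, 179 and 197 in WT DHPG, 169, 186 and 182 in Tsc2+/- vehicle and 170.1, 173 and 186 in Tsc2+/- DHPG, and its groups overlapped.

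Jund, the family member least dependent on stimulation, had RNA values of 216, 242 and 216 in WT vehicle, 253, 244 and 225 in WT DHPG, 249.3, 178 and 182 in Tsc2+/- vehicle and 264, 192 and 195 in Tsc2+/- DHPG. The lowest RNA libraries were Tsc2+/- vehicle replicates 2 and 3. In RPF, Jund was 129, 86.6 and 103 in WT vehicle, 106, 93.6 and 104 in WT DHPG, 109.8, 89.4 and 96.9 in Tsc2+/- vehicle and 114, 88.6 and 94.2 in Tsc2+/- DHPG, and replicate 1 was highest in every group. Atf3, a stress-induced partner of the AP-1 proteins, had RNA values of 18.4, 18.2 and 20.6 in WT vehicle, 16.9, 17.01 and 21.3 in WT DHPG, 17.2, 17.8 and 20.8 in Tsc2+/- vehicle and 17.7, 17.05 and 25.4 in Tsc2+/- DHPG and was highest in replicate 3 of all groups. Its RPF was 19.8, 24.3 and 24.3 in WT vehicle, 19.3, 18.3 and 19.3 in WT DHPG, 18.6, 23.6 and 23.3 in Tsc2+/- vehicle and 16.4, 15.7 and 22.7 in Tsc2+/- DHPG, with every WT DHPG library below every WT vehicle library. Crem, which also encodes the repressor ICER, had RNA values of 12.9, 12.3 and 12.8 in WT vehicle, 11.6, 11.4 and 10.5 in WT DHPG, 10.9, 13.5 and 15.7 in Tsc2+/- vehicle and 12.4, 9.89 and 12.4 in Tsc2+/- DHPG, with all WT DHPG libraries below all WT vehicle libraries. Its log2 difference, DHPG minus vehicle in WT, was -0.18 (95% interval -0.46 to 0.09). For Fosl2 and Maff the groups overlapped in both assays.

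The Egr zinc finger factors act downstream of ERK and serum response factor. Egr1 RNA measured 347, 349 and 304 in WT vehicle, 379, 340.2 and 329 in WT DHPG, 380.2, 305 and 359 in Tsc2+/- vehicle and 339.5, 314 and 338 in Tsc2+/- DHPG, and its 4 groups overlapped. Egr1 RPF was 325, 341 and 299 in WT vehicle, 357, 339.6 and 293 in WT DHPG, 357, 305 and 344 in Tsc2+/- vehicle and 328, 311 and 330.2 in Tsc2+/- DHPG, and there too the groups overlapped. Egr3 RNA was 252, 248.8 and 236 in WT vehicle, 243, 246 and 248.7 in WT DHPG, 248, 238 and 231 in Tsc2+/- vehicle and 238, 242 and 221 in Tsc2+/- DHPG, the narrowest range of the family in RNA, with the Tsc2+/- DHPG libraries below the WT DHPG libraries. Egr3 RPF, 115, 78.0 and 90.2 in WT vehicle, 101, 91.9 and 92.1 in WT DHPG, 88.3, 84.1 and 91.6 in Tsc2+/- vehicle and 82.9, 98.3 and 82.8 in Tsc2+/- DHPG, was highest in WT vehicle replicate 1. Egr2, the scarcest of the family, had RNA values of 10.5, 12.2 and 14.0 in WT vehicle, 10.7, 12.1 and 12.9 in WT DHPG, 12.6, 11 and 17.6 in Tsc2+/- vehicle and 10.3, 11.3 and 14.1 in Tsc2+/- DHPG and was highest in replicate 3 of each group. Its RPF was 19.8, 19.3 and 17.1 in WT vehicle, 15.7, 16.9 and 16.98 in WT DHPG, 17.3, 15.6 and 19.1 in Tsc2+/- vehicle and 14.7, 13.1 and 19.1 in Tsc2+/- DHPG, with the WT DHPG libraries all slightly under the WT vehicle libraries. Egr4 RNA was 94.0, 111 and 87.7 in WT vehicle, 115, 112 and 97.8 in WT DHPG, 106, 86.1 and 90.7 in Tsc2+/- vehicle and 111, 87.0 and 98.8 in Tsc2+/- DHPG. Its groups overlapped. Egr4 RPF was 98.8, 61.0 and 57.4 in WT vehicle, 75.2, 69.4 and 63.3 in WT DHPG, 62.8, 61.0 and 56.9 in Tsc2+/- vehicle and 69.6, 72.9 and 61.8 in Tsc2+/- DHPG, where WT vehicle replicate 1 stood well above the other libraries.

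The Nr4a genes encode orphan nuclear receptors induced through CREB. Nr4a1 RNA was 126, 137 and 121 in WT vehicle, 145, 143 and 141 in WT DHPG, 146, 132 and 143 in Tsc2+/- vehicle and 133, 126 and 149.6 in Tsc2+/- DHPG, so that every WT DHPG library exceeded every WT vehicle library while the Tsc2+/- groups overlapped. Nr4a1 RPF, 123, 98.9 and 77.6 in WT vehicle, 104, 101 and 76.4 in WT DHPG, 116, 100.0 and 89.6 in Tsc2+/- vehicle and 97.8, 102 and 87.6 in Tsc2+/- DHPG, was lowest in replicate 3 of each group. Nr4a2 RNA was 74.5, 79.3 and 68.7 in WT vehicle, 75.5, 83.6 and 75.3 in WT DHPG, 69.1, 77.6 and 78.6 in Tsc2+/- vehicle and 78.4, 77.8 and 79.6 in Tsc2+/- DHPG. Its groups overlapped. Nr4a2 RPF was 80.6, 109 and 102 in WT vehicle, 93.3, 125 and 108 in WT DHPG, 89.2, 107 and 108 in Tsc2+/- vehicle and 103, 104 and 101 in Tsc2+/- DHPG, and replicate 1 was the lowest in 3 of the 4 groups. Nr4a3 showed no group that stood apart in either assay. Npas4, an activity-dependent factor of inhibitory synapse formation, had RNA values of 25.4, 29.4 and 18.9 in WT vehicle, 31.8, 27.3 and 17.5 in WT DHPG, 36.2, 26.3 and 24.2 in Tsc2+/- vehicle and 26.7, 29.4 and 23.98 in Tsc2+/- DHPG. Its RPF was 31.1, 25.6 and 16.7 in WT vehicle, 27.7, 28.3 and 16.7 in WT DHPG, 32.6, 27.8 and 19.1 in Tsc2+/- vehicle and 25.8, 22.4 and 22.0 in Tsc2+/- DHPG, and in both assays replicate 3 was the lowest library of each group. Klf2, a Krüppel-like factor also abundant in endothelium, had RNA values of 10.1, 8.21 and 7.68 in WT vehicle, 9.66, 6.65 and 7.95 in WT DHPG, 11.1, 5.77 and 7.81 in Tsc2+/- vehicle and 10.5, 4.42 and 6.78 in Tsc2+/- DHPG and was highest in replicate 1 of all groups. Klf2 RPF was 11.2, 7.53 and 7.99 in WT vehicle, 10.3, 6.35 and 9.88 in WT DHPG, 9.83, 7.96 and 8.54 in Tsc2+/- vehicle and 8.88, 3.74 and 4.96 in Tsc2+/- DHPG, with Tsc2+/- DHPG replicates 2 and 3 the lowest. Klf6 RNA was 64.4, 64.4 and 66.0 in WT vehicle, 60.5, 62.5 and 69.5 in WT DHPG, 62.3, 66.4 and 70.2 in Tsc2+/- vehicle and 74.1, 63.1 and 71.1 in Tsc2+/- DHPG, and its groups overlapped. Klf6 RPF was 48.3, 46.4 and 45.6 in WT vehicle, 53.8, 52.5 and 58.3 in WT DHPG, 56.9, 55.2 and 56.6 in Tsc2+/- vehicle and 59.1, 47.1 and 49.8 in Tsc2+/- DHPG, so that both the WT DHPG and the Tsc2+/- vehicle libraries lay above the WT vehicle libraries. For Klf4 and Klf10 the groups overlapped in both assays.

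Among the other nuclear and growth-arrest genes, Ier3, an early response protein that modulates cell survival, had the widest spread by replicate. Ier3 RNA was 11.3, 14.6 and 21.7 in WT vehicle, 10.2, 13.8 and 23.2 in WT DHPG, 12.5, 16.3 and 26.3 in Tsc2+/- vehicle and 13.0, 15.5 and 25.1 in Tsc2+/- DHPG. Ier3 RPF was 18.1, 20.3 and 26.2 in WT vehicle, 13.5, 16.9 and 23.8 in WT DHPG, 13.9, 21.2 and 27.4 in Tsc2+/- vehicle and 15.3, 21.3 and 35.6 in Tsc2+/- DHPG, and in both assays replicate 3 was highest and replicate 1 lowest in every group. Ier2 RNA was 10.9, 12.7 and 20.5 in WT vehicle, 13.6, 15.01 and 17.7 in WT DHPG, 12.5, 15.9 and 12.2 in Tsc2+/- vehicle and 14.0, 12.3 and 16.1 in Tsc2+/- DHPG. The groups overlapped. Ier2 RPF was 21.5, 15.1 and 14.5 in WT vehicle, 15.3, 10.3 and 12.7 in WT DHPG, 13.4, 9.55 and 11.8 in Tsc2+/- vehicle and 15.3, 10.1 and 14.6 in Tsc2+/- DHPG, with all Tsc2+/- vehicle libraries below all WT vehicle libraries. Ier5 RNA was 68.5, 59.0 and 72.7 in WT vehicle, 59.5, 65.7 and 72.3 in WT DHPG, 58.9, 57.7 and 67.1 in Tsc2+/- vehicle and 55.4, 58.0 and 67.1 in Tsc2+/- DHPG, highest in replicate 3 of every group. Ier5 RPF, 88.1, 43.2 and 47.9 in WT vehicle, 60.1, 49.1 and 55.7 in WT DHPG, 50.1, 49.9 and 54.8 in Tsc2+/- vehicle and 52.0, 56.1 and 61.8 in Tsc2+/- DHPG, had WT vehicle replicate 1 far above the rest. Csrnp1, a nuclear early response factor, had RNA values of 39.5, 46.8 and 49.96 in WT vehicle, 38.4, 41.7 and 49.6 in WT DHPG, 35.6, 44.9 and 47.3 in Tsc2+/- vehicle and 38.1, 40.9 and 51.4 in Tsc2+/- DHPG and was highest in replicate 3 and lowest in replicate 1 of each group. Csrnp1 RPF was 59.8, 49.2 and 50.2 in WT vehicle, 48.6, 47.1 and 52.2 in WT DHPG, 44.6, 41.4 and 47.4 in Tsc2+/- vehicle and 41.3, 41.1 and 48.4 in Tsc2+/- DHPG, with the WT vehicle libraries above the Tsc2+/- vehicle libraries.

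Gadd45b and Gadd45g, which take part in active DNA demethylation, shared their highest replicate number in RNA. Gadd45b RNA was 52.8, 59.7 and 71.6 in WT vehicle, 55.6, 62.0 and 72.9 in WT DHPG, 53.5, 60.1 and 65.3 in Tsc2+/- vehicle and 54.5, 64.3 and 79.7 in Tsc2+/- DHPG. Gadd45g RNA was 19.6, 19.9 and 26.4 in WT vehicle, 20.5, 23.9 and 25.6 in WT DHPG, 21.2, 19.8 and 21.8 in Tsc2+/- vehicle and 17.4, 21.4 and 25.6 in Tsc2+/- DHPG. Replicate 3 was highest for both in all groups. Gadd45b RPF was 57.7, 56.5 and 69.2 in WT vehicle, 56.8, 60.3 and 67.6 in WT DHPG, 55.9, 65.8 and 65.1 in Tsc2+/- vehicle and 53.9, 60.2 and 63.3 in Tsc2+/- DHPG. Gadd45g RPF was 34.97, 30.9 and 31.6 in WT vehicle, 35.7, 34.4 and 36.2 in WT DHPG, 32.5, 33.9 and 36.5 in Tsc2+/- vehicle and 31.6, 23.9 and 39.4 in Tsc2+/- DHPG. These footprint values overlapped between all groups. Btg2, an antiproliferative early gene, had RNA values of 14.5, 15.01 and 15.8 in WT vehicle, 13.8, 13.2 and 15.4 in WT DHPG, 15.7, 15.9 and 16.96 in Tsc2+/- vehicle and 14.5, 13.4 and 15.3 in Tsc2+/- DHPG, with the Tsc2+/- DHPG libraries below the Tsc2+/- vehicle libraries. Btg2 RPF was 11.2, 12.3 and 9.89 in WT vehicle, 8.59, 10.02 and 8.36 in WT DHPG, 10.3, 8.75 and 10.02 in Tsc2+/- vehicle and 8.76, 9.72 and 7.32 in Tsc2+/- DHPG, with the Tsc2+/- DHPG libraries below the WT vehicle libraries. Btg1 RNA was 44.6, 46.8 and 40.9 in WT vehicle, 47.8, 51.3 and 45.02 in WT DHPG, 49.3, 37.9 and 43.1 in Tsc2+/- vehicle and 47.6, 39.3 and 41.7 in Tsc2+/- DHPG, without a group that stood apart.

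The feedback genes switch the pathway off again. Dusp1, a nuclear phosphatase of MAP kinases, had RNA values of 44.6, 51.8 and 61.7 in WT vehicle, 51.2, 56.1 and 67.8 in WT DHPG, 49.3, 49.2 and 59.2 in Tsc2+/- vehicle and 52.0, 47.1 and 56.7 in Tsc2+/- DHPG and was highest in replicate 3 of every group. Dusp1 RPF was 70.5, 72.3 and 80.3 in WT vehicle, 68.1, 69.1 and 80.8 in WT DHPG, 64.7, 77.4 and 69.8 in Tsc2+/- vehicle and 61.0, 65.1 and 67.7 in Tsc2+/- DHPG, with the Tsc2+/- DHPG libraries below the WT DHPG libraries. Dusp6, a phosphatase specific for ERK, had RNA values of 70.6, 76.2 and 58.3 in WT vehicle, 70.7, 65.1 and 62.7 in WT DHPG, 74.9, 61.7 and 71.9 in Tsc2+/- vehicle and 68.6, 60.9 and 57.7 in Tsc2+/- DHPG. Its RPF was 175, 167 and 118 in WT vehicle, 164, 162 and 129.98 in WT DHPG, 167, 146 and 136 in Tsc2+/- vehicle and 146, 133 and 147 in Tsc2+/- DHPG. The groups overlapped in both assays. Zfp36, which encodes tristetraprolin, was 43.2, 59.2 and 73.4 in WT vehicle, 57.2, 61.9 and 87.7 in WT DHPG, 53.0, 63.2 and 69.3 in Tsc2+/- vehicle and 57.6, 60.7 and 84.6 in Tsc2+/- DHPG in RNA. Zfp36 RPF was 30.7, 32.9 and 42.6 in WT vehicle, 26.4, 28.6 and 43.1 in WT DHPG, 29.4, 31.8 and 36.5 in Tsc2+/- vehicle and 27.1, 28.04 and 37.8 in Tsc2+/- DHPG, and both assays were highest in replicate 3 and lowest in replicate 1 of every group. Plk2 RNA was 384, 371 and 389 in WT vehicle, 373, 357 and 362 in WT DHPG, 386, 359 and 372 in Tsc2+/- vehicle and 348, 347 and 363 in Tsc2+/- DHPG, the narrowest relative range of the 45 genes in RNA. Plk2 RPF was 827, 953 and 1000.5 in WT vehicle, 919.7, 902 and 946 in WT DHPG, 921, 942 and 925 in Tsc2+/- vehicle and 857, 884 and 909.9 in Tsc2+/- DHPG, with the Tsc2+/- DHPG libraries below the Tsc2+/- vehicle libraries. Plk3, a stress-response kinase, had RNA values of 16.9, 16.8 and 17.7 in WT vehicle, 16.4, 18.3 and 19.4 in WT DHPG, 15.3, 16.0 and 17.2 in Tsc2+/- vehicle and 15.2, 15.5 and 15.8 in Tsc2+/- DHPG. Plk3 RPF was 11.5, 10.04 and 11.8 in WT vehicle, 12.7, 10.99 and 16.98 in WT DHPG, 12.9, 10.6 and 16.8 in Tsc2+/- vehicle and 10.7, 8.97 and 9.44 in Tsc2+/- DHPG, and in both assays the Tsc2+/- DHPG libraries lay below the WT DHPG libraries. Pim1, a survival kinase, had RNA values of 15.4, 16.7 and 18.1 in WT vehicle, 15.02, 14.3 and 17.6 in WT DHPG, 13.2, 14.9 and 13.7 in Tsc2+/- vehicle and 13.0, 15.2 and 18.1 in Tsc2+/- DHPG, and its Tsc2+/- vehicle libraries lay below the WT vehicle libraries. Pim1 RPF was 31.7, 28.1 and 30.4 in WT vehicle, 24.9, 25.4 and 30.2 in WT DHPG, 25.3, 26.0 and 24.7 in Tsc2+/- vehicle and 24.2, 16.8 and 27.6 in Tsc2+/- DHPG, in the same order. Dusp4 RNA was 15.3, 13.6 and 11.2 in WT vehicle, 12.2, 11.2 and 12.9 in WT DHPG, 13.3, 11.9 and 12.8 in Tsc2+/- vehicle and 8.46, 10.9 and 11.2 in Tsc2+/- DHPG, with the Tsc2+/- DHPG libraries below the Tsc2+/- vehicle and the WT DHPG libraries. Sik1, a CREB-regulated kinase, had RNA values of 21.9, 21.6 and 20.1 in WT vehicle, 21.4, 22.8 and 21.9 in WT DHPG, 20.1, 22.6 and 18.5 in Tsc2+/- vehicle and 24.7, 21.1 and 21.1 in Tsc2+/- DHPG. Sik1 RPF was 14.1, 10.8 and 11.8 in WT vehicle, 12.3, 9.28 and 11.9 in WT DHPG, 12.1, 14.3 and 13.6 in Tsc2+/- vehicle and 12.7, 6.73 and 8.73 in Tsc2+/- DHPG, lowest in Tsc2+/- DHPG replicates 2 and 3. Rgs2 RNA was 40.3, 35.01 and 42.8 in WT vehicle, 39.0, 40.9 and 43.4 in WT DHPG, 41.0, 41.8 and 48.2 in Tsc2+/- vehicle and 37.4, 39.5 and 42.8 in Tsc2+/- DHPG. Rgs2 RPF was 93.9, 94.6 and 100.0 in WT vehicle, 94.4, 107 and 98.8 in WT DHPG, 87.2, 99.4 and 91.9 in Tsc2+/- vehicle and 93.7, 104 and 96.5 in Tsc2+/- DHPG, and its groups overlapped in both assays. Errfi1, an inhibitor of EGF receptor signalling, had RPF values of 68.9, 75.3 and 76.8 in WT vehicle, 68.9, 68.6 and 67.9 in WT DHPG, 68.6, 66.6 and 74.2 in Tsc2+/- vehicle and 63.8, 58.7 and 67.7 in Tsc2+/- DHPG, with the Tsc2+/- DHPG libraries below the WT vehicle and the WT DHPG libraries. For Dusp5 and Trib1 the groups overlapped in both assays.

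The effector genes act outside the nucleus. Bdnf RNA was 45.6, 34.9 and 35.8 in WT vehicle, 33.1, 39.8 and 31.9 in WT DHPG, 34.1, 39.0 and 30.7 in Tsc2+/- vehicle and 31.6, 33.7 and 29.5 in Tsc2+/- DHPG, where WT vehicle replicate 1 was the highest library. Bdnf RPF was 61.6, 51.7 and 44.9 in WT vehicle, 51.0, 52.3 and 49.9 in WT DHPG, 49.9, 50.1 and 53.9 in Tsc2+/- vehicle and 42.8, 50.1 and 43.0 in Tsc2+/- DHPG. WT vehicle replicate 1 was the highest there too. Ptgs2, the inducible cyclooxygenase, had RNA values of 21.4, 16.3 and 22.0 in WT vehicle, 15.9, 16.2 and 27.5 in WT DHPG, 17.01, 18.6 and 21.2 in Tsc2+/- vehicle and 13.8, 18.01 and 20.3 in Tsc2+/- DHPG. Its RPF was 34.7, 37.9 and 45.6 in WT vehicle, 41.6, 40.3 and 64.6 in WT DHPG, 40.6, 44.3 and 50.1 in Tsc2+/- vehicle and 32.2, 41.5 and 47.4 in Tsc2+/- DHPG, with WT DHPG replicate 3 highest in both assays. Cyr61, a secreted matrix protein, had RNA values of 38.7, 41.5 and 34.2 in WT vehicle, 42.1, 42.4 and 37.4 in WT DHPG, 47.9, 39.5 and 40.3 in Tsc2+/- vehicle and 44.2, 38.8 and 40.5 in Tsc2+/- DHPG. Cyr61 RPF was 162, 155 and 99.3 in WT vehicle, 129, 122 and 101 in WT DHPG, 149, 123 and 111 in Tsc2+/- vehicle and 128, 115 and 105 in Tsc2+/- DHPG, and replicate 3 was the lowest of every group. Rheb RNA was 96.1, 87.9 and 98.1 in WT vehicle, 83.8, 87.6 and 79.0 in WT DHPG, 87.5, 93.1 and 75.0 in Tsc2+/- vehicle and 84.7, 90.5 and 80.4 in Tsc2+/- DHPG, with all WT DHPG libraries below all WT vehicle libraries. Rheb RPF was 162, 246 and 222 in WT vehicle, 232, 288 and 225 in WT DHPG, 221, 259 and 232 in Tsc2+/- vehicle and 232, 238 and 249.2 in Tsc2+/- DHPG, and WT vehicle replicate 1 was the lowest library by a wide margin.

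**Figure D2:**
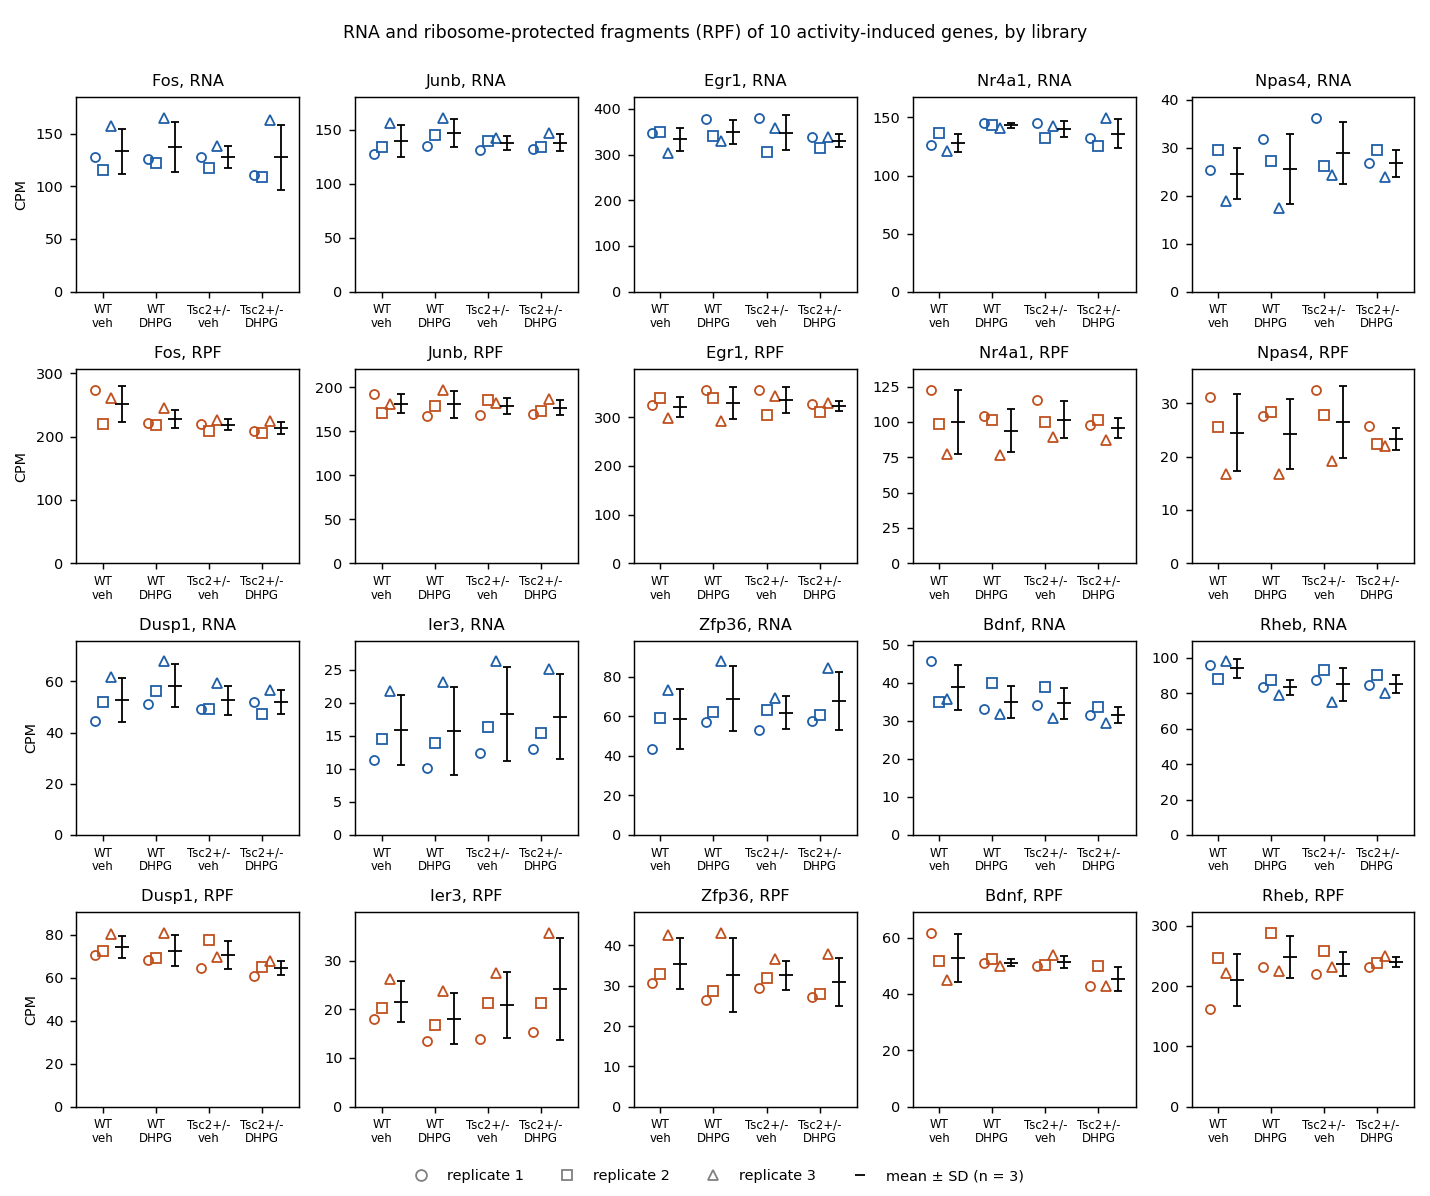
CPM of 10 of the genes in each of the 12 RNA libraries (blue) and 12 RPF libraries (orange) by group; symbols give the replicate number and bars the mean ± SD (n = 3), with each axis starting at 0. Vehicle and DHPG libraries overlap in most panels, and in RNA the triangles of replicate 3 lie above the other symbols for Fos, Junb, Dusp1, Ier3 and Zfp36 in every group and lowest for Npas4.

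The first comparison asked whether 5 min of DHPG changed these genes in WT slices. None of the 45 passed an adjusted p of 0.1 in RNA (edgeR quasi-likelihood test; 0 of all 14516 genes, 0%), in RPF (4 of 12877 genes, 0.0311%) or in TE (6 of 12785 genes, 0.0469%). At an unadjusted p under 0.05 there were 3 of 45 in RNA (6.67%, against 6.45% of all genes), 8 in RPF (17.8%, against 6.71%) and 6 in TE (13.3%, against 9.07%). DESeq2 called 0 in RNA, 0 in RPF and 1, Rheb, in TE. All 45 RNA intervals lay within a 1.5-fold change in either direction and all 45 RPF intervals within 2-fold, so that for no gene did the interval reach a 2-fold change at 5 min. The log2 differences, DHPG minus vehicle, had a median of 0.02 in RNA (24 of 45 above 0, range -0.18 to 0.23) and -0.03 in RPF (15 of 45 above 0, range -0.43 to 0.29). Over all genes the medians were -0.00 in both assays.

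Fos differed by 0.05 (95% interval -0.08 to 0.17) in RNA with DHPG and by -0.14 (95% interval -0.27 to -0.01) in RPF. Egr1 differed by 0.06 (95% interval -0.06 to 0.18) in RNA and 0.03 (95% interval -0.10 to 0.17) in RPF, and Npas4 by 0.03 (95% interval -0.21 to 0.27) and -0.02 (95% interval -0.28 to 0.24). The smallest p-values in RNA belonged to Zfp36 at 0.23 (SE 0.07, unadjusted p = 0.00350, edgeR adjusted p = 0.712), Nr4a1 at 0.16 (SE 0.06, unadjusted p = 0.0151, edgeR adjusted p = 0.725) and Rheb at -0.17 (SE 0.07, unadjusted p = 0.0146, edgeR adjusted p = 0.725). In RPF they belonged to Cyr61 at -0.24 (SE 0.08, unadjusted p = 0.00535, edgeR adjusted p = 0.538), Rheb at 0.25 (SE 0.08, unadjusted p = 0.00583, edgeR adjusted p = 0.562), Ptgs2 at 0.29 (SE 0.10, unadjusted p = 0.00738, edgeR adjusted p = 0.588) and Ier2 at -0.43 (SE 0.15, unadjusted p = 0.00785, edgeR adjusted p = 0.588). None passed the correction over all genes. Without WT vehicle replicate 2, Egr4, Nr4a1 (0.24) and Rheb (-0.27) passed in RNA, and without WT vehicle replicate 3, Cyr61 passed in RPF (-0.35). The share of all genes that passed in those fits is not given here, so these calls are not set against a background. Without WT vehicle replicate 1, Rheb RPF was at 0.11, Fos RPF at -0.07 and Zfp36 RNA at 0.15. Cyr61 RPF was at -0.14 without WT vehicle replicate 2, Ptgs2 RPF at 0.18 without WT DHPG replicate 3, and Nr4a1 and Rheb RNA at 0.10 and -0.08 without WT vehicle replicate 3.

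In TE, the smallest p-value with DHPG in WT was that of Rheb, at 0.43 (SE 0.11, unadjusted p = 0.000678, edgeR adjusted p = 0.185). Its RPF per RNA, as a ratio of CPM, was 1.68, 2.80 and 2.26 in WT vehicle, 2.77, 3.29 and 2.85 in WT DHPG, 2.52, 2.78 and 3.10 in Tsc2+/- vehicle and 2.74, 2.63 and 3.10 in Tsc2+/- DHPG. WT vehicle replicate 1 was the lowest library of all 12, and WT vehicle replicate 2 lay within the range of the other groups. The difference was 0.60 (edgeR adjusted p = 0.00884) without WT vehicle replicate 2 and 0.28 without WT vehicle replicate 1, so the call depended on which lysate was left out. Zfp36 differed in TE by -0.37 (SE 0.13, unadjusted p = 0.00646, edgeR adjusted p = 0.344), its RPF per RNA being 0.711, 0.556 and 0.581 in WT vehicle, 0.461, 0.462 and 0.491 in WT DHPG, 0.555, 0.504 and 0.527 in Tsc2+/- vehicle and 0.471, 0.462 and 0.447 in Tsc2+/- DHPG. All WT DHPG ratios of Zfp36 lay below all WT vehicle ratios. Cyr61 differed by -0.33 (SE 0.11, unadjusted p = 0.00686, edgeR adjusted p = 0.344), Ier2 by -0.51 (SE 0.22, unadjusted p = 0.0223, edgeR adjusted p = 0.452) and Klf6 by 0.24 (SE 0.11, unadjusted p = 0.0391, edgeR adjusted p = 0.521). The Ier2 difference was -0.33 without WT vehicle replicate 1 and -0.89 without WT vehicle replicate 3.

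In Tsc2+/- slices DHPG again gave 0 calls among the 45 genes in RNA (0% of all genes), RPF (0%) and TE (0%). At an unadjusted p under 0.05 there were 3 of 45 in RNA (6.67%, against 4.32% of all genes), 3 in RPF (6.67%, against 4.03%) and 4 in TE (8.89%, against 3.69%). In RNA these were Dusp4 at -0.31 (95% interval -0.58 to -0.04), Dusp6 at -0.16 (95% interval -0.31 to -0.00) and Gadd45b at 0.14 (95% interval 0.01 to 0.27). In RPF they were Klf2 at -0.59 (95% interval -1.03 to -0.15), Sik1 at -0.50 (95% interval -0.87 to -0.12) and Plk3 at -0.46 (95% interval -0.81 to -0.11), 3 genes of few footprints. Dusp4 was at -0.15 without Tsc2+/- DHPG replicate 1, Dusp6 at -0.06 and Gadd45b at 0.09 without Tsc2+/- vehicle replicate 3, Sik1 at -0.32 without Tsc2+/- vehicle replicate 2 and Plk3 at -0.29 without Tsc2+/- DHPG replicate 3. Fos differed by -0.02 (95% interval -0.15 to 0.11) in RNA and Egr1 by -0.07 (95% interval -0.19 to 0.05). With the 2 genotypes averaged, DHPG gave 0 calls in RNA (0.0207% of all genes), RPF (0.0311%) and TE (0.0469%). An unadjusted p under 0.05 was found for 5 of 45 in RNA (11.1%, against 7.49% of all genes), 6 in RPF (13.3%, against 6.82%) and 5 in TE (11.1%, against 8.52%). The smallest p-values were those of Zfp36 in RNA, at 0.18 (SE 0.05, unadjusted p = 0.00187, edgeR adjusted p = 0.498), and Cyr61 in RPF, at -0.18 (SE 0.06, unadjusted p = 0.00243, edgeR adjusted p = 0.414).

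The second comparison asked whether the loss of 1 Tsc2 copy altered these genes in vehicle. None passed in RNA (0.0896% of all genes called), RPF (0.0233%) or TE (0%). At an unadjusted p under 0.05 there were 4 of 45 in RNA (8.89%, against 4.9% of all genes), 6 in RPF (13.3%, against 6.55%) and 4 in TE (8.89%, against 5.73%). In RNA, Fosb was at 0.15 (SE 0.06, unadjusted p = 0.0156, edgeR adjusted p = 0.983), Nr4a1 at 0.13 (95% interval 0.00 to 0.26), Pim1 at -0.26 (95% interval -0.49 to -0.03) and Rheb at -0.15 (95% interval -0.28 to -0.01). Fosb was at 0.07 without WT vehicle replicate 1, Nr4a1 at 0.07 and Rheb at -0.06 without WT vehicle replicate 3, and Pim1 at -0.16 without Tsc2+/- vehicle replicate 3. In RPF, Ier2 was at -0.57 (SE 0.16, unadjusted p = 0.000940, edgeR adjusted p = 0.434) and Fos at -0.20 (SE 0.06, unadjusted p = 0.00353, edgeR adjusted p = 0.550). Klf6 was at 0.26 (SE 0.09, unadjusted p = 0.00792, edgeR adjusted p = 0.605), Csrnp1 at -0.26 (SE 0.10, unadjusted p = 0.00975, edgeR adjusted p = 0.623) and Egr4 at -0.26 (95% interval -0.48 to -0.03). Rheb RPF, at 0.19 (95% interval 0.02 to 0.36), differed in the direction opposite to its RNA, with a TE difference of 0.34 (SE 0.11, unadjusted p = 0.00579, edgeR adjusted p = 0.804) that was called without WT vehicle replicate 2 (0.51). Without WT vehicle replicate 1, the Rheb difference was 0.06 in RPF and 0.20 in TE.

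WT vehicle replicate 1 stood apart in RPF. It was the highest of the 12 libraries for 20 of the 45 genes, with a median deviation of 0.20 (log2) from each gene's own mean over libraries, against 0.01 over all genes. In its RNA library it was highest for 3 genes and the median deviation was -0.03. The RPF library was also the highest of the 12 in the summed CPM of the neuronal (8991), CA1 (979), dentate (64.7), astrocyte (2201), microglial (372) and endothelial (79.3) markers, and it held 7543757 counts. Their part in the result was not tested. The counts without this library were added after its values were seen. Leaving out a WT vehicle library that is high for these genes raises both comparisons with WT vehicle by construction, so the counts only describe its weight. With this library, 30 of 45 genes lay below 0 for genotype in vehicle in RPF (median -0.05), and without it 21 did (median 0.02). The genes with an unadjusted p under 0.05 then numbered 2 (4.44%, against 6.75% of all genes). For DHPG in WT the count below 0 went from 30 to 20, the median from -0.03 to 0.03, and the genes with an unadjusted p under 0.05 from 8 to 4 (8.89%, against 8.4%). The Fos difference by genotype went from -0.20 to -0.12, that of Csrnp1 from -0.26 to -0.15 and that of Ier2 from -0.57 to -0.50. Tsc2+/- DHPG replicate 2 was at the other end, the lowest RPF library for 12 genes, and in its RNA library 7 of the 45 genes lay above their own mean.

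**Figure D3:**
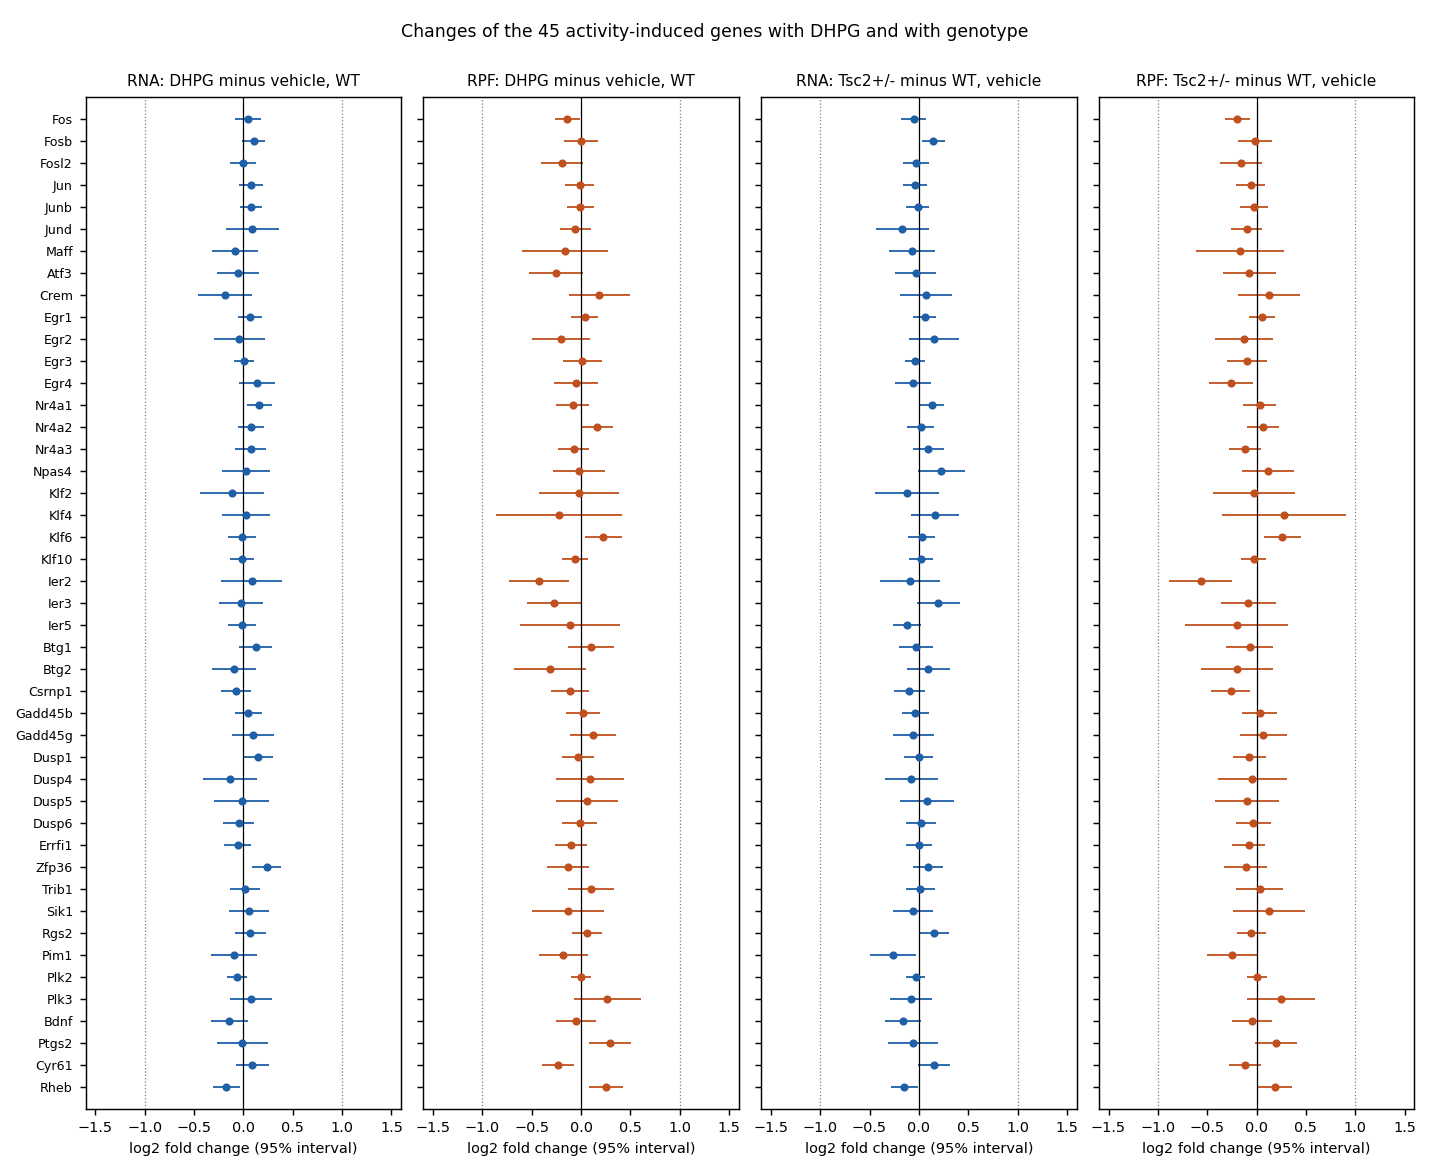
Log2 fold change of the 45 genes (y axis) with 95% intervals from the edgeR fit, for DHPG minus vehicle in WT and for Tsc2+/- minus WT in vehicle, in RNA (blue) and RPF (orange); dotted lines mark 2-fold changes. No interval reaches a 2-fold change, and the lowest value is that of Ier2 by genotype in RPF, at -0.57.

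Under DHPG, Tsc2+/- and WT slices likewise gave 0 calls in RNA (0.0482% of all genes), RPF (0.0155%) and TE (0%). Of the 45 genes, 3 had an unadjusted p under 0.05 in RNA (6.67%, against 4.64% of all genes), 5 in RPF (11.1%, against 4.13%) and 0 in TE (0%, against 3.01%). In RPF, 37 of the 45 lay below 0 (median -0.06), and 31 to 38 did when a library or a replicate number was left out. The median deviation of the 45 genes from their own RPF means was 0.05, -0.01 and 0.03 in WT DHPG replicates 1 to 3. It was -0.05, -0.10 and -0.003 in Tsc2+/- DHPG. Over all genes these libraries lay at 0.003 to 0.011. One library shifts many genes together, so the count of 37 is a description and not 45 separate results. The smallest p-values in RPF were those of Ier3 at 0.39 (SE 0.13, unadjusted p = 0.00586, edgeR adjusted p = 0.9995), Klf2 at -0.59 (SE 0.21, unadjusted p = 0.00832, edgeR adjusted p = 0.9995) and Plk3 at -0.47 (SE 0.17, unadjusted p = 0.00856, edgeR adjusted p = 0.9995). In RNA, Dusp1 was at -0.16 (95% interval -0.31 to -0.02), Plk3 at -0.22 (95% interval -0.43 to -0.01) and Btg1 at -0.17 (95% interval -0.34 to -0.00). Without Tsc2+/- DHPG replicate 3, Ier3 RPF was at 0.24 and Plk3 RPF at -0.30, and Btg1 RNA was at -0.08 without WT DHPG replicate 2. Averaged over treatments, 0 of the 45 were called for genotype in RNA (0.227% of all genes), RPF (0.0621%) or TE (0%). An unadjusted p under 0.05 was found for 4 in RNA (8.89%, against 6.12% of all genes), 6 in RPF (13.3%, against 6.63%) and 1 in TE (2.22%, against 4.54%). In RPF, 38 of the 45 lay below 0, with a median of -0.06. Without WT vehicle replicate 1, 29 of 45 did, with a median of -0.02. The count of 38 is likewise a description. Fos was at -0.15 (SE 0.04, unadjusted p = 0.00241, edgeR adjusted p = 0.535) in RPF and Ier3 at 0.20 (SE 0.08, unadjusted p = 0.0125, edgeR adjusted p = 0.637) in RNA.

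Whether the 2 genotypes differed in their DHPG response was tested as an interaction, in which 0 of the 45 genes and 0 of all genes were called in RNA, RPF and TE (0% in each). At an unadjusted p under 0.05 there were 2 of 45 in RNA (4.44%, against 3.47% of all genes), 5 in RPF (11.1%, against 3.81%) and 5 in TE (11.1%, against 4.08%). In RNA these were Fosb at -0.21 (SE 0.08, unadjusted p = 0.0157, edgeR adjusted p = 0.999) and Nr4a1 at -0.20 (SE 0.09, unadjusted p = 0.0260, edgeR adjusted p = 0.999). In RPF the smallest belonged to Ptgs2 at -0.47 (SE 0.15, unadjusted p = 0.00300, edgeR adjusted p = 0.998), Plk3 at -0.72 (SE 0.24, unadjusted p = 0.00479, edgeR adjusted p = 0.998) and Ier2 at 0.64 (SE 0.22, unadjusted p = 0.00627, edgeR adjusted p = 0.998). In TE, Klf6 was at -0.42 (SE 0.16, unadjusted p = 0.0122, edgeR adjusted p = 0.999) and Rheb at -0.40 (SE 0.16, unadjusted p = 0.0169, edgeR adjusted p = 0.999). Without WT vehicle replicate 1, Fosb RNA was at -0.13 and Rheb TE at -0.26. These comparisons share libraries with each other, so that a gene's value in one is not independent of its value in the next.

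How libraries of one group differed was the last question. The labels number the replicates 1 to 3 in every group, and the replicate number was tested with both of its terms together, beside group. In RNA, 15 of the 45 genes (33.3%) were called for replicate number, against 2.54% of all genes. In RPF, 13 of the 45 (28.9%) were called, against 4.65% of all genes. The genes of the RNA result were Fos, Jun, Junb, Atf3, Egr2, Npas4, Klf2, Ier3, Ier5, Csrnp1, Gadd45b, Gadd45g, Dusp1, Zfp36 and Ptgs2. Of these 15, 13 were highest in replicate 3, and Npas4 and Klf2 were highest in replicate 1. The genes of the RPF result were Jund, Egr4, Nr4a1, Nr4a2, Npas4, Klf2, Ier2, Ier3, Dusp6, Zfp36, Ptgs2, Cyr61 and Rheb, of which 8 were highest in replicate 1, 2 in replicate 2 and 3 in replicate 3. Called in both assays were Ier3, Klf2, Npas4, Ptgs2 and Zfp36, which are 33.3% of the RNA calls and 38.5% of the RPF calls, and each of these 5 was highest in the same replicate number in both.

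Over the 4 groups, Ier3 RNA was 11.73 ± 1.24 CPM in replicate 1, 15.05 ± 1.08 in replicate 2 and 24.1 ± 2.02 in replicate 3 (SD, n = 4). Replicate 3 exceeded replicate 1 by 1.04 on the log2 scale in RNA (edgeR adjusted p = 1.26e-09) and by 0.90 in RPF (edgeR adjusted p = 3.44e-05). Zfp36 RNA was 52.8 ± 6.68 CPM in replicate 1, 61.2 ± 1.70 in replicate 2 and 78.7 ± 8.79 in replicate 3, a difference of 0.58 (edgeR adjusted p = 4.68e-07), with 0.50 in RPF. Fos RNA was 123 ± 8.43 CPM in replicate 1, 116 ± 5.32 in replicate 2 and 156 ± 12.2 in replicate 3, a difference of 0.34 (edgeR adjusted p = 2.53e-06), whereas its RPF was not called (edgeR adjusted p = 0.186). Npas4 went the other way, at 30.04 ± 4.95 CPM in replicate 1, 28.1 ± 1.601 in replicate 2 and 21.2 ± 3.45 in replicate 3 in RNA, a difference of -0.50 (edgeR adjusted p = 0.0119), and -0.64 in RPF. Klf2 RNA was 10.3 ± 0.625 CPM in replicate 1, 6.26 ± 1.59 in replicate 2 and 7.55 ± 0.527 in replicate 3, highest in replicate 1. In RPF, Cyr61 was 142 ± 16.6 CPM in replicate 1, 129 ± 17.7 in replicate 2 and 104 ± 5.33 in replicate 3, with a log2 difference of -0.43 between replicates 3 and 1 (edgeR adjusted p = 0.000606).

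By role, the RNA calls covered 4 of 9 AP-1 and related genes, 1 of 4 Egr genes, 0 of 3 Nr4a genes, 2 of 5 of the Npas4 and Klf genes, 5 of 8 other nuclear genes, 2 of 12 feedback and kinase genes and 1 of 4 effectors. Egr1, Fosb, Plk2 and Bdnf were called in neither assay. Of the 15 RNA calls, 5 had the nonamer in the 3′ UTR (33.3%), against 5 of the 30 genes not called (16.7%). Without replicate 3 only Klf2 and Ier3 were called in RNA, and without replicate 1 there were 9, namely Fos, Jun, Npas4, Ier3, Ier5, Gadd45b, Dusp1, Zfp36 and Ptgs2. Without Tsc2+/- DHPG replicate 3 alone there were 9, namely Fos, Jun, Npas4, Klf2, Ier3, Csrnp1, Gadd45b, Dusp1 and Zfp36. These fits had fewer libraries, and the 2.54% of all genes called belongs to the full fit. The counts are therefore not set against a background.

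**Figure D4:**
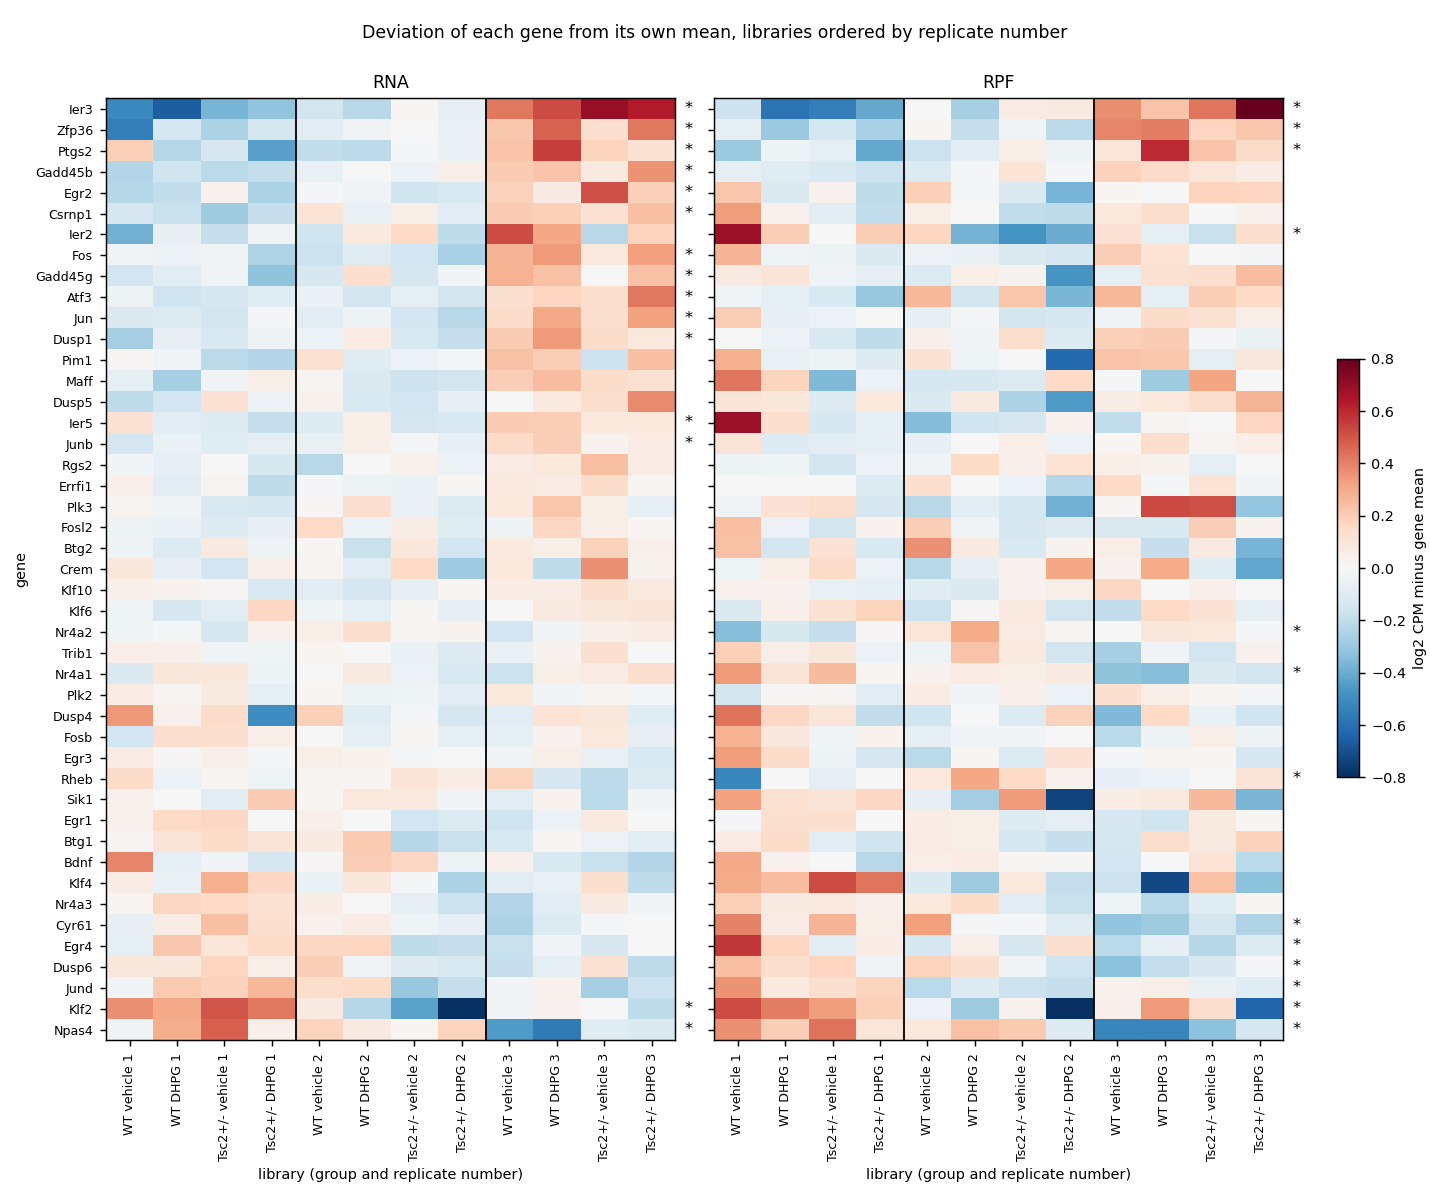
Deviation of each of the 45 genes (rows, ordered by replicate 3 minus replicate 1 in RNA) from its own mean log2 CPM, in 12 RNA and 12 RPF libraries ordered by replicate number; red is above and blue below the mean, with the colours ending at 0.8, and asterisks mark the 15 RNA and 13 RPF genes called for replicate number. In RNA the 4 libraries of replicate 3 are red for most genes at the top and blue for Npas4 at the bottom, in all groups alike.

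The spread within groups was lower once replicate number was taken into account. In RNA the median SD of the 45 genes around the group mean was 0.15 (log2), and 0.10 once replicate number was in the model. Over the 9321 genes of the same level range it was 0.11 and 0.10, and over all genes 0.14 and 0.13. In RPF the 45 genes went from 0.19 to 0.14, and genes of the same level range from 0.16 to 0.14. Across the 12 libraries the highest value of a gene exceeded the lowest by a median factor of 1.39 in RNA and 1.55 in RPF, at most 2.58 and 3.00.

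Markers of other cell types moved with replicate number as well. The summed microglial markers were lower in replicate 3, at 167 to 195 CPM in RNA against 206 to 227 in replicates 1 and 2, and at 213 to 252 in RPF against 285 to 372, with 3 of 5 genes called in RNA and 4 of 5 in RPF. Of 4 astrocyte markers, 2 were called in each assay, and in RPF 3 of 4 CA1 and 2 of 5 neuronal markers were called. None of the dentate, CA3 or endothelial markers was called in either assay, and no marker of these lists was at 0 in every library. The part of these cell types in the differences by replicate number was not tested, and the day, operator or batch behind a replicate number is not given in the labels.

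The same fits covered 2 further lists of genes. Of 18 other activity-induced genes, among them Arc and Homer1, 0 were called in any comparison of groups in RNA, RPF or TE. For replicate number 1 was called in RNA (Arc) and 2 in RPF (Per1 and Arl4d). Arc, which encodes a synaptic capsid-like protein, had RNA values of 86.2, 97.2 and 96.0 in WT vehicle, 93.4, 102 and 110.3 in WT DHPG, 91.3, 90 and 106 in Tsc2+/- vehicle and 77.0, 89.0 and 103 in Tsc2+/- DHPG and differed with DHPG in WT by 0.13 (95% interval -0.00 to 0.26). Arc RPF was 88.4, 76.0 and 78.0 in WT vehicle, 66.0, 77.4 and 75.0 in WT DHPG, 71.1, 80.1 and 64.8 in Tsc2+/- vehicle and 53.9, 67.7 and 61.6 in Tsc2+/- DHPG, with a log2 difference of -0.16 (95% interval -0.34 to 0.03). Homer1, a scaffold of group I metabotropic receptors, differed by -0.15 in RNA (95% interval -0.28 to -0.01) and 0.02 in RPF (95% interval -0.14 to 0.19). Of 20 upstream regulators, such as Creb1 and Srf, 0 were called in any comparison of groups, and Camk4 was called for replicate number in RNA. The 18 other genes had 5 with an unadjusted p under 0.05 for DHPG in WT in RNA (27.8%) and the 20 regulators 4 (20%), against 3 of the 45 genes described here (6.67%) and 6.45% of all genes.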

How the data were processed

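RNA-seq and ribosome profiling values were available for 24 libraries, 12 per assay, as 1 table per assay with 1 row per gene. The authors trimmed adapters with Cutadapt and Trimmomatic, removed rRNA and tRNA reads with Bowtie2, aligned the rest to mm10 with TopHat2 and removed PCR duplicates by molecular identifiers. The deposited values are RSEM expected counts per RefSeq gene as the authors gave them, over whole transcripts for RNA and over coding sequences, less 30 bases at each end, for RPF. They were whole numbers and were not normalized. A spreadsheet date stood where a gene symbol should be for 27 RNA genes, none of them described here. Read depth was 14801679 to 24067838 counts in RNA and 5296006 to 13613673 in RPF, and the common biological coefficient of variation was 7.01% and 7.04%.

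From these counts, genes were kept by filterByExpr (minimum count 10), scaled by TMM and fitted in edgeR 4.0.16 (R 4.3.3) separately for the 12 RNA and the 12 RPF libraries, using terms for group and for replicate number, since the study corrected for batch. The quasi-likelihood F test gave 7 comparisons of groups and a test of replicate number. P-values were adjusted over all genes by Benjamini-Hochberg and called under 0.1. For TE all 24 libraries entered 1 model, whose assay-by-group terms were tested with replicate number nested in assay, in place of the anota2seq of the study. This model did not pair the RNA and RPF libraries of a lysate, so its TE p-values and SEs leave that pairing out. DESeq2 1.42.0, RLE scaling, other filters, a 0.05 threshold, no replicate block, halved RPF counts, the lysate as a block in TE and fits without each library were the alternatives. The code was tested on simulated data. Labels give no separate culture or animal per replicate beyond the pools.

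The 45 genes and the other lists were chosen with earlier results of these data known, and no p-value adjusted over a list is given. Values in every library are printed for 17 genes chosen by name (Fos, Fosb, Junb, Jun, Egr1, Egr3, Nr4a1, Npas4, Ier2, Btg2, Dusp1, Dusp6, Bdnf, Ptgs2, Plk2, Rheb and Cyr61), for genes called in any comparison, and for up to 3 higher and 3 lower with the smallest unadjusted p under 0.05 in each comparison. Errfi1 was added after its values were seen. The counts of genes below 0, or at an unadjusted p under 0.05, in fits without a library were likewise added after the data were seen. Transcript lengths, promoters and 3′ UTR sequence came from RefSeq on GRCm38.p6.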

Additional observations from a re-analysis of the deposited data

How the results depend on the processing

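The count of called genes stayed at 0 of 45 in every comparison of groups without the replicate block, with RLE scaling, with either other filter, at an adjusted p under 0.05 and with halved RPF counts, and DESeq2 changed it in TE for DHPG in WT, where it called 1 (Rheb). In TE it also stayed at 0 with the lysate as a block. Leaving out single libraries, lysates or replicate numbers gave 0 to 3 calls in RNA for DHPG in WT, 0 to 1 (Jund, lower) in RNA for genotype in vehicle and for genotype averaged, 0 to 1 (Cyr61, lower) in RPF for DHPG in WT and for DHPG averaged, 0 to 2 in TE for DHPG in WT, and 0 to 1 (Rheb) in TE for DHPG averaged and for genotype in vehicle. The causes were not tested. For replicate number the range was 2 to 19 in RNA, the lowest without replicate 3, and 6 to 12 in RPF, the lowest without replicate 1 or replicate 3. In RPF 8 of the 13 had an adjusted p under 0.05. Fits that leave out replicate numbers or libraries also have fewer samples, and the share of all genes called in them is not given here. Over genes of at least 10 CPM, deviations from the group means correlated between libraries of the same number with a median r of 0.16 in RNA (lowest -0.10) and 0.17 in RPF (lowest 0.07). Libraries of different numbers had -0.07 and -0.09, and 11 of 12 RNA and 12 of 12 RPF libraries were closest to their own number. The study names batches for its replicates and corrected counts for batch, whereas the labels do not tie a replicate number to a batch. Klf4 and Klf2 footprints, at as few as 14 deposited counts (fewer fragments if those counts were doubled), limit what RPF can show for these genes.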
